A study of Homo sapiens with 18 samples.

Results

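The genes described here were higher after 12 h of interferon alpha and had fallen by 48 h. Their symbols lie outside the best-known families of interferon-stimulated genes. A gene was a member when its group mean RPKM plus 1 rose at least 1.7-fold from 0 to 12 h and fell to at most 0.75 of that value by 48 h, in WT and in KO cells, with a 12 h mean of at least 2 RPKM in each. RPKM is a read count divided by the length of the gene and by the size of the library. Symbols with the prefixes IFI, OAS, MX, CXCL, CCL, IRF, STAT, SOCS, TRIM, PARP, GBP, APOL, APOBEC, DDX, HERC, SAMD9, HLA, PSM, TAP, CASP, TNF, SP1, ZNF or IL were left out. The rule found 128 of the 16472 genes in the table, of which 2 had no symbol and 2 had an identifier as their symbol. The group means at 0, 12 and 48 h chose the members, so the rise, the fall and the level left at 48 h are given below as descriptions without a test.

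RNA was sequenced from NIKS, an established, spontaneously immortalized line of keratinocytes from human skin, kept on a feeder layer of irradiated mouse J2/3T3 fibroblasts. The 6 groups were WT and SP100 knockout (KO) cells, each untreated (0 h) or given interferon alpha 2a (25 ng/mL) for 12 or 48 h, with 3 biological replicates a group. SP100 encodes a protein of PML nuclear bodies, and KO carries its knockout at all 3 times. The table's column names give a single line for each genotype, Vec2 and KO5, so genotype and line cannot be told apart. All groups shared a growth medium with hydrocortisone, cholera toxin, epidermal growth factor and insulin. Untreated cells at 12 or 48 h were not analysed here, so the hours of interferon and the hours of culture cannot be told apart. In bulk RNA, fewer cells that express a gene and less RNA per cell cannot be told apart.

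Type I interferon binds the IFNAR receptor, and the kinases JAK1 and TYK2 then activate transcription factors that bind interferon-stimulated response elements (ISREs) in promoters. The response is held in check by induced inhibitors, among them USP18, which binds the receptor and blocks signalling. Keratinocytes form the outer barrier of the skin and express receptors and sensors that let them answer viruses. When activated, as at a wound edge, they change their keratins, secrete proteases and take up more glucose.

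SP100 RNA was at 27.9 to 31.9 RPKM in untreated WT and 14.2 to 16.0 RPKM in untreated KO libraries, and the genotypes did not overlap at any time. The RNA level alone does not show whether protein was made. Relative depth, recovered from the steps of low values, ranged from 0.817 to 1.26 of the mean, and replicates of a group correlated across genes at 0.985 to 0.989. The total number of reads is unknown. The 15 keratinocyte markers listed were all in the table, with a summed level of 21170 to 26144 RPKM over the libraries. Of 18 fibroblast markers 10 were in the table, with a sum of 328 to 556 RPKM that was lower at 48 h than at 0 h in each genotype, and 1 of them, TAGLN, is a member.

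The members rose by a median factor of 2.49 in WT and 2.55 in KO at 12 h, on the scale of group means plus 1, against 0.943 and 0.937 over the 13280 genes with at least 1 RPKM in 3 or more libraries. All 128 members passed this filter. From 12 to 48 h their median factor was 0.580 in WT and 0.542 in KO, against 1.05 and 1.06 over all genes tested. Every 12 h library lay above every 0 h library in 124 members in WT and 124 in KO, where 18.5% and 18.4% of all genes tested did so. These separations follow from the rule and support nothing further. Just inside the 1.7-fold limit lay RAET1L at 1.71 and HSPA1B at 1.72, and just outside it TRAF3IP3 at 1.697 and PTPRZ1 at 1.69. At the limit of 0.75, ERAP1 and UBE2L6 were inside at 0.7499 and 0.749, and MFSD12 and USP41 outside at 0.752 and 0.756. At the level limit, SUSD4 at 2.02 RPKM and DOK3 at 2.19 RPKM were inside, and FYB1 at 1.89 and OR52K3P at 1.83 RPKM outside.

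**Figure D1:**
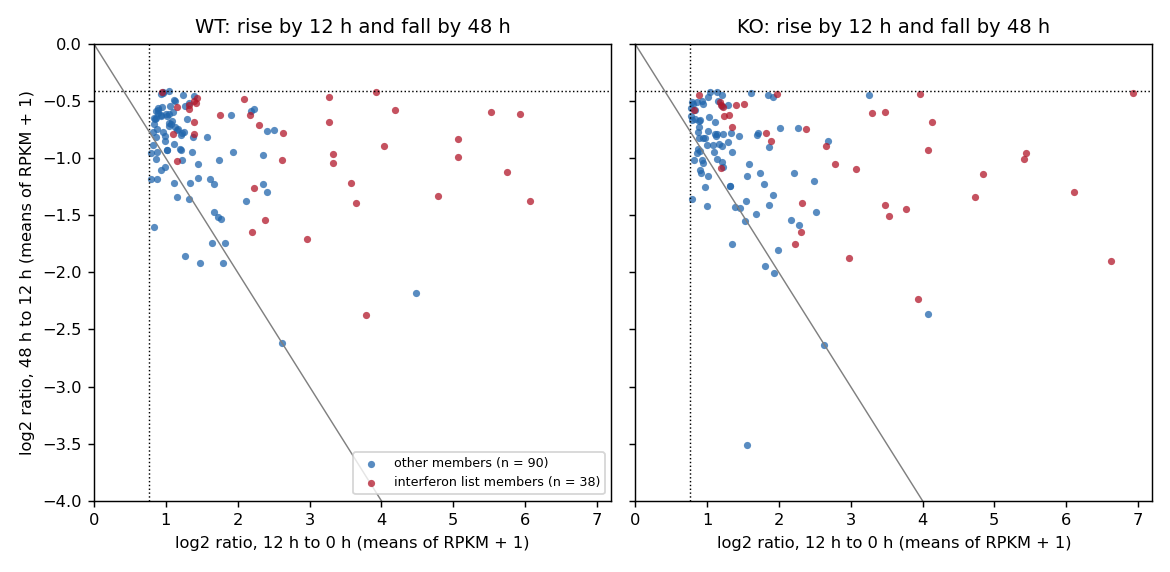
Each point is a member, with the log2 ratio of its 12 h to its 0 h mean (RPKM plus 1) on the x axis and that of its 48 h to its 12 h mean on the y axis, in WT (left) and KO (right). Red points are the 38 members in a list of interferon-stimulated genes, blue points the other 90, dotted lines are the limits of the rule, and points on the grey diagonal had returned to their starting level. Most of the red points lie to the upper right of the diagonal, and the blue points gather near the lower limit of the rise.

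The label of genes outside the classical families held only in part. A list of 92 interferon-stimulated genes without the barred prefixes, of which 85 were tested, contained 38 of the 128 members. These 38 rose by a median factor of 6.17 in WT and 6.58 in KO, and the other 90 members by 2.18 and 2.30. The other 47 tested genes of the list did not meet the rule. By limma's test with Benjamini-Hochberg adjustment, WT had 77 of the 85 listed genes called higher at 12 h and 1 called lower, where 15.1% of all genes tested were higher and 29.8% lower. The counts in KO were 78 and 1, against 16% and 32.8% of all genes tested. From 12 to 48 h, 55 of the 85 fell and 9 rose in WT, and 57 fell and 7 rose in KO. With median-of-ratios scaling the counts from 12 to 48 h were 58 lower and 4 higher in WT, and 59 lower and 4 higher in KO. Of all genes tested, 11.3% fell and 24.6% rose in WT, and 14% fell and 27.7% rose in KO. The 38 members are part of these counts and were chosen by the same contrasts, so the counts over all 85 do not test the list. With median-of-ratios scaling, limma called a rise by 12 h for 41 of the 47 others in WT and 40 in KO. It called a decrease for 1 in each genotype. From 12 to 48 h, 20 of these 47 fell and 4 rose in WT, against 21 and 4 in KO. Failing the rule defined these 47, so their counts are descriptions too.

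Among the antiviral effectors, RSAD2 encodes viperin, a radical SAM enzyme that makes a chain-terminating nucleotide. It was at 0.52, 0.15 and 0.04 RPKM in untreated WT, at 79.1, 83.8 and 83.0 RPKM at 12 h, and at 29.7, 32.6 and 30.6 RPKM at 48 h. In KO it was listed at 0, 0 and 0.02 RPKM, then at 98.9, 94.6 and 101.2 RPKM, and then at 25.4, 25.5 and 25.8 RPKM. No 2 times overlapped in either genotype, and 37.6% of the rise was present at 48 h in WT and 26.1% in KO.

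ISG15 is a ubiquitin-like protein that is joined to other proteins in interferon-treated cells, and had the highest 12 h level of the interferon-list members. In WT it was at 18.5, 15.7 and 13.6 RPKM at 0 h, 1118, 949.9 and 1019 RPKM at 12 h, and 654.9, 649.7 and 715.1 RPKM at 48 h. KO libraries were at 4.46, 5.68 and 6.77 RPKM, then 775.5, 820.5 and 825.8 RPKM, and then 552.0, 678.2 and 563.6 RPKM. It kept 64.9% of its rise in WT and 73.9% in KO at 48 h, among the highest shares of any member. UBE2L6, the conjugating enzyme for ISG15, kept 73.1% and 71.9%. USP18, the protease that removes ISG15 and restrains the receptor, kept 48.8% and 43.3%.

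ISG20, an RNA exonuclease, kept little of its rise. It went from 4.10, 2.57 and 2.64 RPKM in untreated WT to 57.5, 52.0 and 57.9 RPKM at 12 h, and back to 11.0, 9.45 and 9.46 RPKM at 48 h. In KO it was at 2.11, 2.22 and 3.31 RPKM, then 48.8, 50.1 and 61.2 RPKM, and then 10.9, 11.2 and 9.52 RPKM. Its 48 h libraries lay far below all 12 h libraries yet above every 0 h library of the same genotype, with 13.1% of the rise present in WT and 15.7% in KO. MLKL, the executor of necroptosis, lost more of its rise, with 7.80% and 6.33% present.

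The members that sense nucleic acids or pass on the signal included RIGI, the RNA helicase that detects viral RNA. It was at 3.98 to 4.81 RPKM in untreated WT, 174.5 to 184.9 RPKM at 12 h and 99.2 to 100.5 RPKM at 48 h, and in KO at 2.75 to 3.23, 164.6 to 176.5 and 81.4 to 86.1 RPKM. MYD88, the adaptor of Toll-like and interleukin 1 receptors, went from 10.9, 10.7 and 11.2 RPKM to 55.0, 56.2 and 53.8 RPKM and back to 24.0, 22.3 and 20.6 RPKM in WT. In KO MYD88 was at 11.1 to 11.9 RPKM, 60.1 to 63.6 RPKM and 22.6 to 23.5 RPKM. All 3 times were separated for both genes in both genotypes, and MYD88 kept 25.8% and 22.6% of its rise where RIGI kept 54.9% and 48.6%. TLR3, the endosomal receptor of double-stranded RNA, kept 54.8% in WT and 39.4% in KO. UNC93B1, which carries Toll-like receptors to endosomes and is not in the interferon list, rose 2.58-fold and 3.23-fold and kept 21.4% and 38.5%.

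The other interferon-list members fell into the same range. XAF1, a pro-apoptotic protein, LGALS9, a galectin, LAMP3, a lysosomal membrane protein, and HSH2D, an SH2 adaptor, were each under 1 RPKM at 0 h and at 17.2 RPKM or more in every 12 h library. SAMHD1, which degrades deoxynucleotides, HELZ2, a helicase, PLSCR1, a scramblase, PNPT1, a mitochondrial RNA-degrading enzyme, and the transcription factors BATF2 and ETV7 rose 3.38-fold to 16.8-fold, and each kept 39.5% or more of the rise. LGALS9 has near-identical relatives, so its reads are uncertain. ERAP2 of the list and ERAP1, which is not in it, trim peptides for MHC class I and lie next to each other on chromosome 5. WARS1, the cytosolic tryptophanyl-tRNA synthetase, rose from 117.4 to 118.6 RPKM in untreated WT to 246.5 to 260.4 RPKM at 12 h and kept 21.0%.

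The sequence before each start site was read from RefSeq promoters of GRCh38.p14, from 250 bases before to 50 after the start, and 88 of the 128 members matched by symbol. The ISRE core, searched as GAAA, any 2 bases and GAAA on both strands, was found in 10 of 29 interferon-list members (34.5%) and in 3 of the 59 other members (5.08%). It was in 2.84% of promoters of the genes tested and in 54.8% of 31 genes that met the same thresholds but have a barred prefix. The stretches below show the core in some of these 10 interferon-list members and in the 3 other members. The rest of the 29, among them RSAD2, RIGI and UBE2L6, had no match. Capitals mark the ISRE core, which reads TTTC, any 2 bases and TTTC where it lies on the opposite strand.
ISG20 (chr15:88638934-88638969, plus strand): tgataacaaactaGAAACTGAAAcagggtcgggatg
MYD88 (chr3:38138587-38138622, plus strand): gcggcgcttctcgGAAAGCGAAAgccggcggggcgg
PLSCR1 (chr3:146544664-146544699, minus strand): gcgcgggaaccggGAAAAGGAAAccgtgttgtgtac
TLR3 (chr4:186069139-186069174, plus strand): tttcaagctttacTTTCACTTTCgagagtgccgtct
OGFR (chr20:62804800-62804835, plus strand): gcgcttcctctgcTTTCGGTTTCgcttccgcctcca
CEACAM1 (chr19:42528575-42528610, minus strand): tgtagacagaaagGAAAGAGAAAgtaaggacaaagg
SHFL (chr19:10086261-10086296, plus strand): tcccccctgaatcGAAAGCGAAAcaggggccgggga
ERAP1 (chr5:96807921-96807956, minus strand): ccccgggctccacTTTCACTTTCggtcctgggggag
PHLDA1-AS1 (chr12:76030352-76030387, plus strand): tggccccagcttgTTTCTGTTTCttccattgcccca

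SHFL, ERAP1 and PHLDA1-AS1 are the 3 members with the core that are not in the interferon list. SHFL, which encodes Shiftless, a blocker of ribosomal frameshifting in viruses, rose 5.70-fold in WT and 6.44-fold in KO. In ISG15 overlapping cores began at positions -113 and -107 from the start, shown in capitals in its window of chr1:1013347-1013446 on the plus strand.
ISG15: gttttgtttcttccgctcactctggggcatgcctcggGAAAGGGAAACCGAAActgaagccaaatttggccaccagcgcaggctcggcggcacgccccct
ISG15 and ISG20 both match this pattern, and their RNAs kept 64.9% and 13.1% of the rise in WT. A match describes letters in the sequence and is not evidence of binding.

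The share of the rise that was present at 48 h differed among the members. It is the difference of the 48 h and 0 h means divided by that of the 12 h and 0 h means. Its median was 27.3% in WT and 22.9% in KO over all members, 46.5% and 41.6% over the interferon-list members, and 22.9% and 18.1% over the other 90. The 45 genes with barred prefixes that met the same thresholds were at 51.5% and 42.7%. Every 48 h library was still above every 0 h library in 93 members in WT, where 15.8% of all genes tested were, and in 81 in KO, against 12.8%. Both genotypes showed this in 77 members, which were 36 of the 38 in the interferon list and 41 of the other 90. The 48 h libraries lay below all 0 h libraries in 7 members in WT and 5 in KO, where 16.8% and 16.4% of all genes tested did so. TFRC, TUBB3 and TNC did so in both genotypes, for which the share of all genes tested was not computed either. Of the 266 genes that met the 12 h limits, 65.04% also met the limit on the fall.

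**Figure D2:**
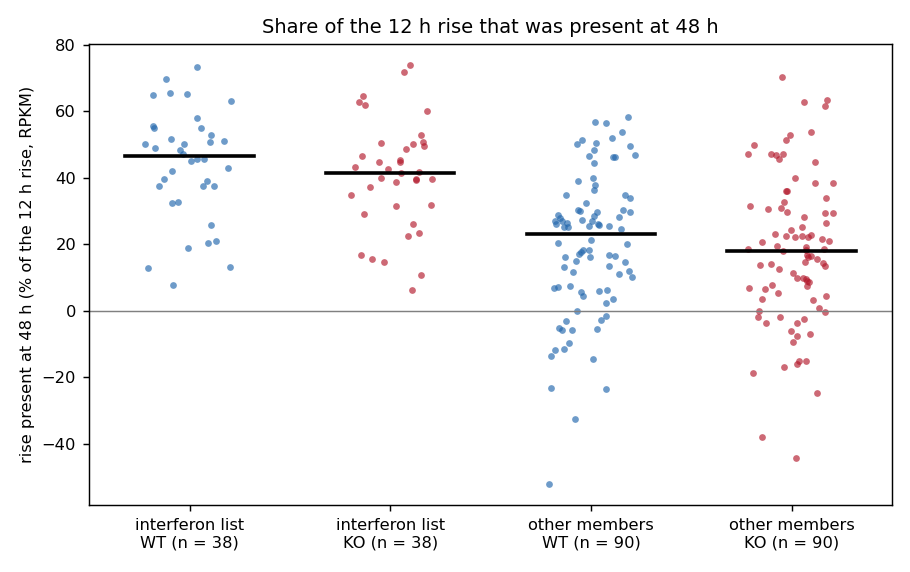
Each point is a member, plotted as the percentage of its 12 h rise in mean RPKM that was present at 48 h, for interferon-list members and other members in WT (blue) and KO (red), and black bars are medians. The medians are 46.5% and 41.6% for the 38 interferon-list members and 22.9% and 18.1% for the other 90, of which some lie below 0, where the 48 h mean is below the 0 h mean.

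The members outside the interferon list included proteases and keratins of activated keratinocytes. MMP13 is a collagenase of wound-edge and invading keratinocytes and had the largest rise of these members. In WT it was at 0.08, 0.10 and 0.12 RPKM, then at 22.4, 24.6 and 23.7 RPKM, and then at 5.25, 3.74 and 4.23 RPKM. The KO values were 0.06, 0.05 and 0.13 RPKM, then 18.8, 15.7 and 17.1 RPKM, and then 2.42, 2.81 and 2.39 RPKM. The times did not overlap, and 18.4% of the rise was present at 48 h in WT and 14.4% in KO. MMP10, a stromelysin, and PLAUR, the receptor of urokinase, rose 1.90-fold and 2.31-fold in WT and 1.86-fold and 2.31-fold in KO. These 3 belong to a list of epidermal growth factor receptor ligands and wound proteases with 17 tested genes. At 12 h limma called 12 of the 17 higher in WT, with 4 lower, where 15.1% of all genes tested were higher and 29.8% lower. In KO it called 11 higher and 3 lower, against 16% and 32.8%. The 3 members are part of these counts and were chosen by the same contrasts. The other 14 genes had a median 12 h ratio of 1.20 in WT and 1.24 in KO, against 0.943 and 0.937 over all genes tested. AREG and HBEGF, ligands of that receptor, were among the lower values at 0.60-fold and 0.58-fold in WT, so the list did not move as a whole.

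KRT6B, a keratin of activated keratinocytes, was at 56.1, 58.9 and 59.5 RPKM in untreated WT, at 309.3, 283.6 and 307.4 RPKM at 12 h, and at 138.2, 118.6 and 125.6 RPKM at 48 h. In KO it was at 66.3, 72.6 and 70.3 RPKM, then at 285.1, 330.9 and 359.4 RPKM, and then at 157.5, 149.3 and 136.8 RPKM. The 3 times were separated, and the 48 h libraries of both genotypes were above all 0 h libraries. KRT6C rose 3.40-fold in WT and 3.65-fold in KO, and KRT75, a keratin of the hair follicle, 5.33-fold and 5.74-fold. KRT75, KRT6B and KRT6C are neighbours in the keratin cluster on chromosome 12, and KRT6C is nearly identical to its relatives, so its reads are uncertain. KRT6A, KRT16 and KRT17, the other keratins of activated cells in a list drawn up after the values were seen, did not meet the rule. KRT6A, the most abundant, went from a mean of 4016 to 6752 RPKM in WT and back to 4916 RPKM, and the median ratio of the 3 was 1.47 in WT and 1.61 in KO.

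The cornified envelope genes SPRR2D and SPRR2A, which encode cross-linked barrier proteins and lie side by side on chromosome 1, rose together. SPRR2D was at 8.70, 8.98 and 9.02 RPKM in untreated WT, at 33.0, 28.3 and 34.4 RPKM at 12 h and at 11.8, 10.2 and 9.63 RPKM at 48 h. In the KO libraries it was at 11.2, 8.28 and 7.37 RPKM, then at 38.2, 48.8 and 54.4 RPKM, and then at 15.2, 16.1 and 14.1 RPKM. The 12 h libraries stood well apart, and every 48 h library was still above every 0 h library of its genotype. SPRR2 genes are nearly identical to each other, so their reads are uncertain. The differentiation list had 19 tested genes, of which limma called 10 higher at 12 h in WT, with 1 lower (15.1% and 29.8% of all genes tested), and 9 higher in KO, with 3 lower (16% and 32.8%). SPRR2D and SPRR2A are part of these counts and were chosen by the same contrasts. The other 17 genes had a median 12 h ratio of 0.998 in WT and 1.07 in KO, against 0.943 and 0.937 over all genes tested. KRT1 and KRT10, the keratins of differentiating cells, were at 0.7497-fold and 0.82-fold in WT. OVOL1, a transcription factor of epidermal differentiation, rose 1.77-fold and 1.83-fold from a mean of 1.73 RPKM in untreated WT.

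MMP10 and SPRR2A are shown as members outside the interferon list that hold an AP-1 site and a TATA box. The AP-1 site, searched as TGANTCA on both strands, was in 13.6% of these 59 promoters and 4.63% of promoters of the genes tested. The TATA box, searched as TATAAA on the coding strand, was in 18.6% and 3.51%. In the 31 matched genes with a barred prefix that met the same thresholds the AP-1 site was more frequent, at 22.6%, and the TATA box was at 9.68%. These shares are descriptions without a test. The windows lie at chr11:102780629-102780728 for MMP10 and chr1:153057513-153057612 for SPRR2A, both on the minus strand, and end at the base before the start. Capitals mark the AP-1 site and the TATA box in MMP10 and the TATA box in SPRR2A, whose AP-1 site lies outside the window.
MMP10: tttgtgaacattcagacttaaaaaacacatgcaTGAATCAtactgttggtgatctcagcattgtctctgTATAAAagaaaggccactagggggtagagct
SPRR2A: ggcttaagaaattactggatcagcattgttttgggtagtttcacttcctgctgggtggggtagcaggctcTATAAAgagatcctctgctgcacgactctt
The TATA box began at position -31 from the start in MMP10 and -30 in SPRR2A. The list of immediate-early genes, which includes the AP-1 subunits FOS and JUN, held 0 members, and the mean level of FOS was 0.71-fold at 12 h in WT and that of JUN 1.21-fold.

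**Figure D3:**
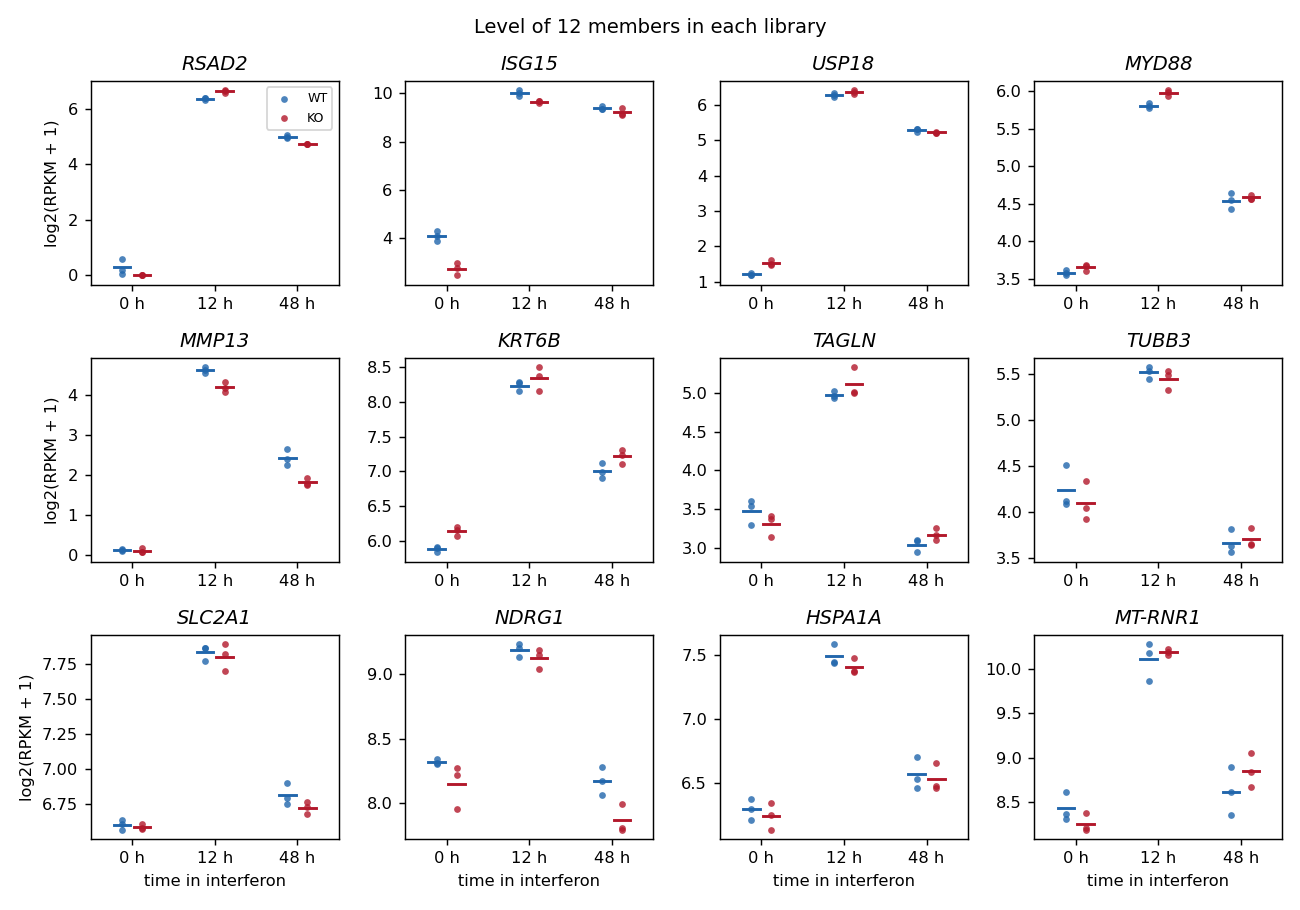
Each panel shows log2(RPKM + 1) of a member in all 18 libraries at 0, 12 and 48 h, with points for the 3 WT (blue) and 3 KO (red) libraries and bars for their means, and each panel has its own y axis. In every panel the 12 h libraries are the highest, whereas TAGLN and TUBB3 are lower at 48 h than at 0 h in the group means and RSAD2, ISG15 and USP18 remain well above their 0 h level.

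A further set of members encodes glucose metabolism and proteins that are induced when oxygen is low. Hypoxia stabilises the HIF transcription factors, which raise glucose uptake and glycolysis. In a list of 42 such genes, drawn up after the values were seen and so given no test, 7 were members. SLC2A1, the glucose transporter GLUT1, was at 96.4, 94.0 and 98.6 RPKM in untreated WT, at 231.8, 217.1 and 232.3 RPKM at 12 h, and at 118.4, 109.9 and 106.7 RPKM at 48 h. In KO it was at 94.8, 94.1 and 96.5 RPKM, then at 206.8, 236.0 and 225.0 RPKM, and then at 105.2, 107.9 and 101.3 RPKM. All 12 h libraries stood far above the others in both genotypes, and 11.7% of the rise was present at 48 h in WT and 7.60% in KO.

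ANGPTL4, an inhibitor of lipoprotein lipase, went from 22.9, 23.9 and 23.8 RPKM to 80.0, 84.2 and 89.5 RPKM and back to 26.4, 17.0 and 21.6 RPKM in WT. KO had it at 13.8, 15.5 and 15.8 RPKM, then at 60.6, 60.6 and 59.0 RPKM, and then at 13.8, 16.0 and 12.9 RPKM. Its 48 h and 0 h libraries overlapped in both genotypes. ANGPTL4 is also in the list of glucocorticoid-induced genes, where the median of the other 10 tested genes was 0.773 in WT and 0.7498 in KO at 12 h, and the part of hydrocortisone in the medium was not tested. NDRG1, a stress-induced gene, was at 314.2 to 324.1 RPKM in untreated WT, 559.4 to 598.5 RPKM at 12 h and 265.9 to 310.6 RPKM at 48 h. EGLN3, a HIF prolyl hydroxylase, rose 3.07-fold in WT and 2.76-fold in KO. BNIP3, a mitophagy receptor, P4HA1, a collagen prolyl hydroxylase, and HK2, a hexokinase, rose 1.78-fold to 1.98-fold in both.

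The other 35 genes of this list had a median 12 h ratio of 1.16 in WT and 1.13 in KO, and 21 of them (60%) were above 1 in both genotypes, where 30.2% of all genes tested were. All 21 then went down to 48 h in both genotypes, whereas 21.9% of all genes tested were first up and then down. This course was not particular to the hypoxia list. It was seen in 14 of 21 replication genes (66.7%) and 11 of 15 keratinocyte markers (73.3%), but in 1 of 20 mitosis genes (5%). With median-of-ratios scaling 26 of the 35 were above 1, against 40.4% of all genes tested, and 23 of them (65.7% of the 35) then went down, against 30.9%. LDHA, lactate dehydrogenase, went from a mean of 1791 to 2596 RPKM in WT and to 1633 RPKM at 48 h. VEGFA, the angiogenic factor that HIF induces, was at 0.89-fold in WT and 0.84-fold in KO at 12 h, and MXI1 at 0.72-fold and 0.68-fold.

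The core of the hypoxia response element, ACGTG on both strands, was in 4 of the 6 matched hypoxia-list members, and in 25% of the 88 matched members against 27.1% of the genes tested. Its 5 letters are common in promoters, and in BNIP3 matches on both strands overlap. BNIP3 and P4HA1 are shown for this core, and P4HA1 and ANGPTL4 for a TATA box, which 3 of these 6 promoters held. Both are in capitals, in windows at chr10:131982004-131982103 on the minus strand for BNIP3, chr10:73096867-73096966 on the minus strand for P4HA1 and chr19:8364055-8364154 on the plus strand for ANGPTL4.
BNIP3: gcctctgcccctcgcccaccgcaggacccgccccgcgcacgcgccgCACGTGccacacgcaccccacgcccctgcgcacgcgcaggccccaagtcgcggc
P4HA1: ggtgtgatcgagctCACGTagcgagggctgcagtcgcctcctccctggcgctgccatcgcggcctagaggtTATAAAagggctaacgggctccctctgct
ANGPTL4: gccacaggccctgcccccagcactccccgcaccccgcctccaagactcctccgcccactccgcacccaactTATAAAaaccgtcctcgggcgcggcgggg

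Molecular chaperones formed a smaller set. The heat shock factors bind repeats of GAA and TTC and raise chaperones when proteins unfold. A list of 27 such genes, drawn up after the values were seen, held 4 members. HSPA1A, an inducible HSP70, was at 73.1, 82.0 and 77.7 RPKM in untreated WT, at 190.2, 172.3 and 172.7 RPKM at 12 h, and at 103.2, 87.1 and 91.3 RPKM at 48 h. In KO it was at 74.9, 69.2 and 80.1 RPKM, then at 163.9, 164.4 and 177.1 RPKM, and then at 88.0, 99.6 and 87.2 RPKM. The 12 h libraries stood clear of both other times in each genotype. HSPA1B, its neighbour on chromosome 6 and near-identical copy, rose 1.82-fold and 1.72-fold, and how reads shared by the 2 were divided is not known.

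DNAJA1, a cochaperone of HSP70, was at 216.1 to 227.3 RPKM in untreated WT, at 432.9 to 475.5 RPKM at 12 h and at 280.6 to 306.8 RPKM at 48 h. CHORDC1, a cochaperone of HSP90, was at 28.8 to 30.6 RPKM, then at 58.2 to 61.8 RPKM, and then at 32.1 to 36.4 RPKM. The 12 h libraries of both stood clear of the other times in each genotype, and in KO the 48 h libraries of CHORDC1 lay below its 0 h libraries. HSPA8 and HSPH1, both HSP70 family chaperones, and HSP90AA1 were at 1.54-fold, 1.58-fold and 1.42-fold in WT, short of the rule. Over the 21 tested genes of the list that are not members, the median 12 h ratio was 1.11 in WT and 1.06 in KO, against 0.943 and 0.937 over all genes tested. Of the 21, 14 (66.7%) were above 1 in both genotypes, where 30.2% of all genes tested were. The share above 1 was 71.4% over the replication genes and 80% over the keratinocyte markers, but 5% over the mitosis genes. HSPB1 and BAG3, which heat shock also induces, were at 0.88-fold and 0.97-fold in WT.

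The heat shock element, searched as GAA, TTC and GAA with any 2 bases between them on both strands, was in 2 of the 88 matched members, CHORDC1 and DNAJA1, and in 0.290% of promoters of the genes tested. CHORDC1 had 3 overlapping matches that began at positions -60, -55 and -50 from the start. The windows lie at chr11:90223050-90223149 on the minus strand for CHORDC1 and chr9:33025189-33025288 on the plus strand for DNAJA1. The windows of HSPA1A and HSPA1B, at chr6:31815443-31815542 and chr6:31827639-31827738 on the plus strand, are set beside them because these copies had the same base at 92 of 100 positions. Capitals mark the heat shock element in the first 2 windows and the TATA box in the other 2.
CHORDC1: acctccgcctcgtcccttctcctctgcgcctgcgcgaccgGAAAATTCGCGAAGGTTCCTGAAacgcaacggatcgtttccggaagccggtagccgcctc
DNAJA1: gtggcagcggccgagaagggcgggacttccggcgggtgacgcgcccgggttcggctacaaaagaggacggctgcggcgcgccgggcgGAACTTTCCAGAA
HSPA1A: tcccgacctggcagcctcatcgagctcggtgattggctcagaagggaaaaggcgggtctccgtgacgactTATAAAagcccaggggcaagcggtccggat
HSPA1B: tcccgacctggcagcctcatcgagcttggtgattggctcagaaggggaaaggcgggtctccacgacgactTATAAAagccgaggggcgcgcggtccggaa

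**Figure D4:**
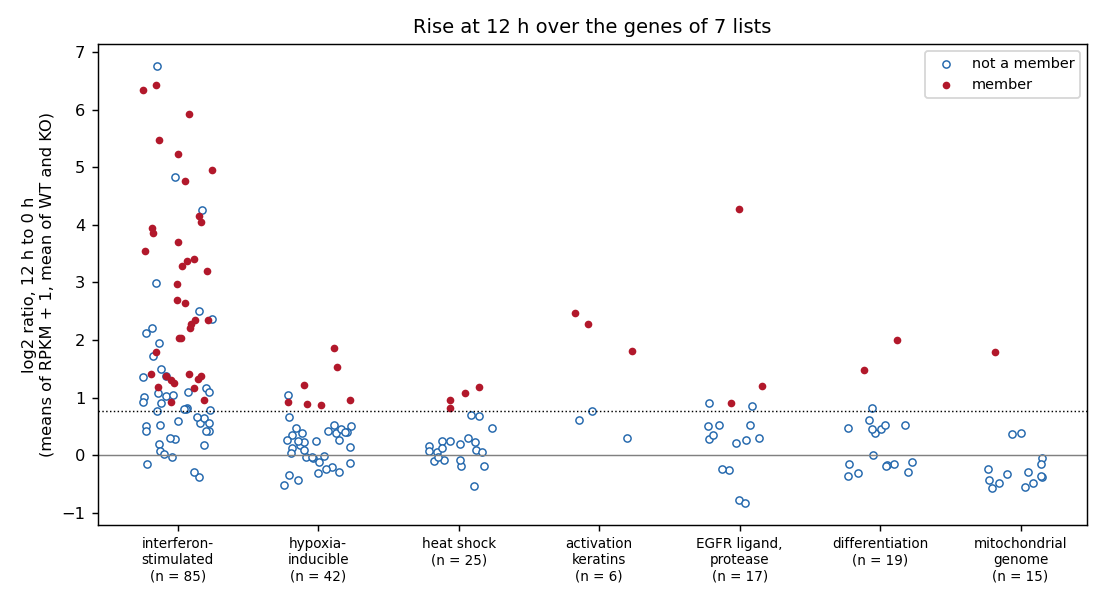
Each point is a tested gene of 1 of 7 lists, plotted as the log2 ratio of its 12 h to its 0 h mean (RPKM plus 1, averaged over WT and KO), with members in red and other genes open, and the dotted line marks 1.7-fold. The interferon-stimulated list reaches far above the line, whereas the members of the hypoxia list lie between 1.78-fold and 3.81-fold in either genotype and those of the heat shock list between 1.72-fold and 2.28-fold.

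Some members ended below their starting level. TNC, the matrix protein tenascin C, was at 18.0, 18.5 and 17.1 RPKM in untreated WT, at 31.8, 32.6 and 33.7 RPKM at 12 h, and at 11.4, 9.11 and 9.90 RPKM at 48 h. The corresponding KO levels were 18.1, 18.7 and 16.9 RPKM, then 30.1, 33.1 and 32.1 RPKM, and then 12.2, 11.9 and 11.3 RPKM. The 48 h libraries were below every 0 h library in both genotypes. TFRC, the transferrin receptor through which cells take up iron, went from 30.55, 31.02 and 30.04 RPKM to 56.0, 59.5 and 55.0 RPKM and then to 25.8, 24.6 and 22.9 RPKM in WT. In KO TFRC was at 28.2, 32.2 and 31.4 RPKM, then 63.3, 61.2 and 63.0 RPKM, and then 23.5, 22.2 and 22.4 RPKM.

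Several cytoskeletal members also ended low. TUBB3, a beta tubulin best known from neurons, was at 16.0, 21.8 and 16.4 RPKM in untreated WT, at 45.5, 42.8 and 46.7 RPKM at 12 h and at 13.0, 10.8 and 11.4 RPKM at 48 h. In KO it was at 14.2, 15.5 and 19.1 RPKM, then at 39.3, 43.9 and 45.3 RPKM, and then at 11.6, 13.2 and 11.4 RPKM. TAGLN, an actin-binding protein of contractile cells, went from 8.81, 11.2 and 10.6 RPKM to 29.5, 29.9 and 31.4 RPKM and then to 7.61, 7.5 and 6.7 RPKM in WT. In KO TAGLN was at 9.62, 7.82 and 9.41 RPKM, then 30.8, 31.3 and 39.1 RPKM, and then 7.97, 8.54 and 7.58 RPKM, where the 48 h and 0 h libraries overlapped. ACTA2 and VIM, other markers of the fibroblast list, were at 0.68-fold and 0.82-fold in WT at 12 h. The 6 tested markers of that list other than TAGLN had a median 12 h ratio of 0.906 in WT and 0.918 in KO. Of these 6, 1 went up at 12 h and then down in both genotypes. Whether feeder RNA entered the reads of TAGLN was not tested. TUBA1A, an alpha tubulin, and NAV1, a microtubule-binding protein, were also below their start at 48 h, with -32.4% and -11.6% of the rise in WT and -15.0% and -2.41% in KO. MAP2, a microtubule-associated protein, was different, at 3.58 to 4.16 RPKM in untreated WT, 20.3 to 22.03 RPKM at 12 h and 12.5 to 14.7 RPKM at 48 h, with 56.9% of the rise present and 62.7% in KO.

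Members with other roles included enzymes and surface proteins, of which NT5C3A and CEACAM1 are in the interferon list. CTSC, the lysosomal protease cathepsin C, was the most abundant of them, at 162.1 to 165.6 RPKM in untreated WT, 478.6 to 503.1 RPKM at 12 h and 261.8 to 290.2 RPKM at 48 h. NT5C3A, a pyrimidine nucleotidase, rose 5.21-fold in WT and 4.93-fold in KO and kept 18.9% and 14.7%. CCNA1, a cyclin of meiosis, rose 4.33-fold and 4.50-fold from a mean of 4.97 RPKM in untreated WT, with 20.2% and 15.6% of the rise present at 48 h. CEACAM1, a cell adhesion receptor that inhibits lymphocytes, rose 4.59-fold and 4.69-fold and kept 12.9% and 10.6%. CYB5R2, a cytochrome b5 reductase, rose 3.55-fold and 3.97-fold and was back at 0.69 to 1.26 RPKM in WT at 48 h, which overlaps its 0 h values of 0.59 to 1.04 RPKM. CD68, a lysosomal protein used as a macrophage marker, rose 2.63-fold and 3.05-fold. Of the 16 leukocyte markers listed 4 were in the table, CD68 the only member, and the sum of the 4 was 20.3 to 59.5 RPKM over the libraries.

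A few members are noncoding or uncertain. The small ribosomal RNA of mitochondria, MT-RNR1, was at 329.6, 390.6 and 317.6 RPKM in untreated WT, at 1234, 928.5 and 1159 RPKM at 12 h, and at 475.5, 390.6 and 326.3 RPKM at 48 h. Its KO levels were 295.8, 332.3 and 292.2 RPKM, then 1166, 1195 and 1134 RPKM, and then 407.8, 457.5 and 531.2 RPKM. The 12 h libraries stood apart, and the other 14 mitochondrial genes had a median ratio of 0.731 in WT and 0.861 in KO, with MT-RNR2, the large ribosomal RNA, at 1.20 and 1.42. The libraries were made from polyadenylated RNA, and whether the carry-over of ribosomal RNA differed between times was not tested. SNORA27 was listed at 0 in 11 of the 18 libraries and its 12 h and 0 h libraries overlapped, as did those of an unnamed gene listed at 0 in 14. PPIAP19, PPIAP40, RPS26P19 and ANO7L1 are related in sequence to other genes and PHLDA1-AS1 is an antisense RNA whose counting by strand is not stated, so their reads are uncertain.

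Several fixed lists held no member. These were NF-kappa-B targets, immediate-early genes, p53 targets, unfolded protein and ATF4 genes, NRF2 and metal response genes, circadian genes, replication, mitosis and cholesterol synthesis. The median 12 h ratio was 1.12 in WT over the NF-kappa-B targets, 0.878 over the immediate-early genes and 0.802 over the p53 targets. Of 13 circadian genes tested, limma called 6 lower at 12 h in WT, with 1 higher, where 29.8% of all genes tested were lower and 15.1% higher. In KO it called 4 lower and 1 higher, against 32.8% and 16%, so the share that was lower is near that of all genes. From 12 to 48 h it called 7 higher and 2 lower in each genotype, where 24.6% of all genes tested were higher in WT and 27.7% in KO, and 11.3% and 14% lower. DBP, a clock output factor, went from 3.57 to 1.11 and 2.67 RPKM in WT means. Whether these genes bear on the course of the members was not tested.

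Whether the knockout changed the members' levels was tested at each time with limma. These comparisons were not used by the rule. At 0 h 16 members (12.5%) differed, 4 higher and 12 lower in KO, where 4.89% of all genes tested did, 2.82% higher and 2.07% lower. At 12 h 10 members (7.81%) differed, 4 higher and 6 lower, against 3.62%, of which 1.6% higher and 2.02% lower. At 48 h 17 members (13.3%) differed, 2 higher and 15 lower, against 4.19%, of which 2.03% higher and 2.16% lower. On the log2(RPKM + 1) scale the members had median KO minus WT differences of -0.02, -0.01 and -0.07 at the 3 times, against 0.02, 0.01 and 0.01 over all genes tested. In total 27 members differed at some time, 6 of them at all 3 times and 0 in opposite directions. The share of all genes tested that did so was not computed, so no excess is read from these totals. The genes with barred prefixes that met the same thresholds gave 8, 3 and 13 of 45. With only the libraries of the comparison in the fit, 10 members were called at 0 h and 9 at 48 h. At 12 h 6 were called with a pseudocount of 0.1, and 6 among genes with a mean RPKM of at least 5. The 0 h count was 10 without WT replicate 1 or without WT replicate 2 of that time. The 12 h count was 5 and 4 without WT replicate 2 and 3 of that time, and 6, 5 and 5 without KO replicate 1, 2 and 3. The shares of all genes called in these other fits are not given here.

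GLIPR1 and HSD11B1 were lower in KO at every time. GLIPR1, a secreted CAP family protein, was at 3.30, 3.85 and 3.64 RPKM in untreated WT and 0.91, 1.19 and 1.10 RPKM in untreated KO. At 12 h it was at 9.32, 11.4 and 11.0 RPKM in WT against 5.66, 5.05 and 6.25 RPKM in KO, and at 48 h at 5.03, 3.49 and 3.43 RPKM against 1.73, 1.02 and 1.38 RPKM. All 3 KO libraries lay below all 3 WT libraries each time, with log2 differences of -1.15, -0.80 and -1.06 (SE 0.132, limma adjusted p 4.23e-05, 0.00187 and 0.000109). HSD11B1, which activates cortisone to cortisol, differed by -1.10, -1.20 and -0.88 (SE 0.139, adjusted p 0.000124, 6.77e-05 and 0.00105), with no overlap at any time. It was at 3.48, 5.07 and 3.86 RPKM in untreated WT and 1.21, 1.57 and 1.37 RPKM in untreated KO. These calls held when any single library was left out.

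NFE2L3, a CNC family transcription factor, was higher in KO at all 3 times. It was at 3.11, 3.07 and 3.23 RPKM in untreated WT and 5.24, 4.89 and 5.78 RPKM in untreated KO, and at 12 h at 8.59, 10.1 and 9.53 RPKM against 15.1, 11.9 and 13.2 RPKM. The differences were 0.61, 0.47 and 0.51 (SE 0.083, adjusted p 0.000267, 0.00359 and 0.00143), and the genotypes did not overlap. A4GALT, the Gb3 synthase, was higher by 0.70, 0.46 and 0.43 (SE 0.11, adjusted p 0.000916, 0.0272 and 0.0357), with 3 of 3 KO libraries above all WT libraries each time. Its 12 h and 48 h calls were lost when 1 library was left out, with an adjusted p of up to 0.108 without KO replicate 1 of 12 h and 0.139 without KO replicate 2 of 48 h. With only the libraries of the comparison in the fit, A4GALT lost the same calls. In that fit limma's adjusted p for NFE2L3 at 12 h was 0.0888.

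ANGPTL4 and FZD8, a Wnt receptor, were lower in KO at all 3 times. ANGPTL4 differed by -0.62, -0.48 and -0.56 (SE 0.11, adjusted p 0.00291, 0.02 and 0.00698), with all KO libraries below all WT libraries each time. The other hypoxia-list members that differed did so at 48 h only: BNIP3 was at 64.4, 64.5 and 66.9 RPKM in WT and 52.97, 52.83 and 54.47 RPKM in KO, a difference of -0.28 (SE 0.032, adjusted p 4.5e-05), and NDRG1 differed by -0.31 (adjusted p 0.0316). FZD8 differed by -0.37, -0.34 and -0.59 (SE 0.0868, adjusted p 0.0194, 0.038 and 0.000613). The adjusted p at 12 h rose to 0.0901 for ANGPTL4 without WT replicate 3 and to 0.173 for FZD8 without KO replicate 1. At 0 h that of FZD8 was 0.0837 without WT replicate 2, and at 48 h that of NDRG1 was 0.129 without WT replicate 1. With only the libraries of the comparison in the fit, limma's adjusted p at 48 h was 0.15 for ANGPTL4 and 0.0593 for FZD8. For FZD8 it was 0.0996 at 0 h in that fit, where the 12 h call of FZD8 and the 48 h call of NDRG1 were also lost.

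**Figure D5:**
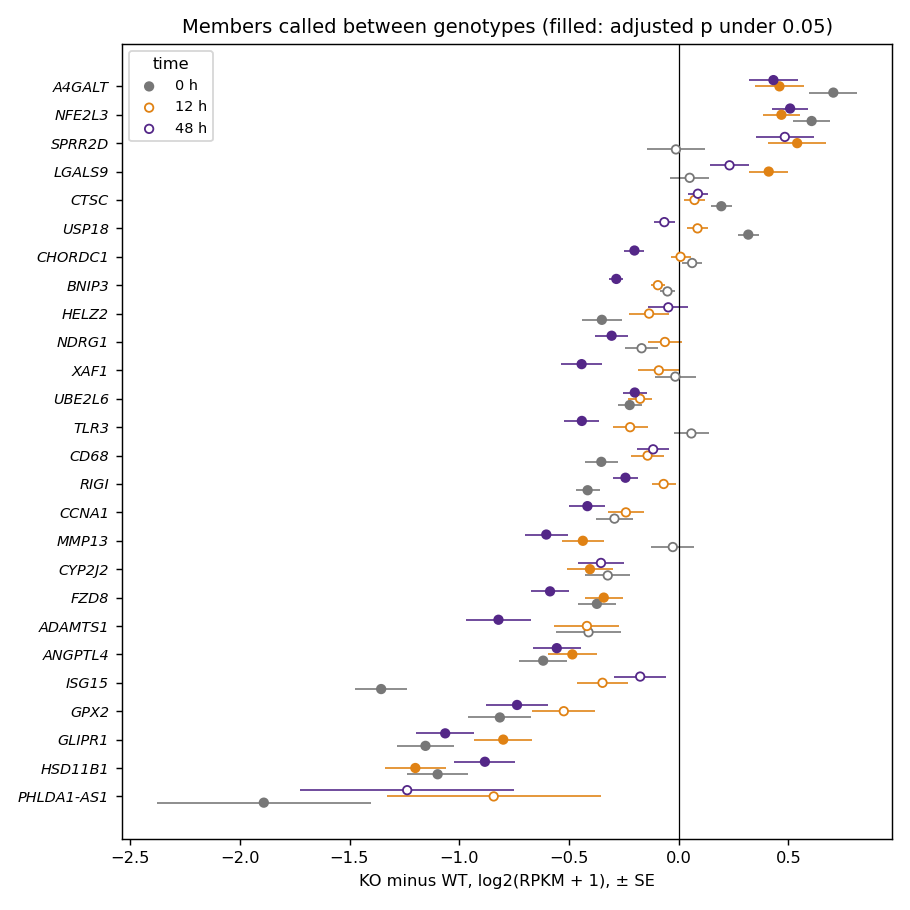
Points show the difference of KO and WT means on the log2(RPKM + 1) scale with its SE at 0 h (grey), 12 h (orange) and 48 h (purple) for the 26 named members called at any time, filled where limma's adjusted p was under 0.05. A4GALT and NFE2L3 are filled to the right of 0 at all 3 times, GLIPR1, HSD11B1, ANGPTL4 and FZD8 to the left.

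Further members were lower in KO at 48 h. MMP13 differed by -0.60 (SE 0.0971, adjusted p 0.00126), ADAMTS1, a proteoglycan-cleaving protease, by -0.82 (SE 0.148, adjusted p 0.00328), GPX2, a glutathione peroxidase, by -0.74 (SE 0.143, adjusted p 0.00605) and TLR3 by -0.44 (SE 0.0795, adjusted p 0.00323). ADAMTS1 was at 3.04, 3.27 and 2.77 RPKM in WT and 1.36, 1.21 and 1.26 RPKM in KO at that time. TLR3 was at 5.12, 5.05 and 5.21 RPKM in WT and 3.71, 3.44 and 3.39 RPKM in KO. In these 4 genes no KO library reached a WT library at 48 h, and their calls held without any single library. CCNA1 (-0.42, limma adjusted p 0.0069), XAF1 (-0.44, 0.0103), RIGI (-0.24, 0.0179), CHORDC1 (-0.20, 0.0177) and UBE2L6 (-0.20, 0.0491) were also lower. Without 1 library the adjusted p reached 0.0607 for XAF1 (KO replicate 1), 0.0787 for RIGI (KO replicate 2), 0.0828 for CHORDC1 (WT replicate 1) and 0.196 for UBE2L6 (WT replicate 2). XAF1 also lost its call with a pseudocount of 0.1, and its limma adjusted p reached 0.575 over all alternatives. UBE2L6 lost its call in 19 of 25 alternatives, of which 15 left out a single library. With only the libraries of the comparison in the fit, limma's adjusted p was 0.0679 for MMP13 and 0.0887 for CCNA1.

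At 0 h 4 of the 38 interferon-list members were called lower in KO and 2 higher, where 2.07% and 2.82% of all genes tested were. The other 32 were not called, and the median difference of the 38 was -0.01. ISG15, RIGI, HELZ2 and UBE2L6 were lower, with differences of -1.36, -0.42, -0.35 and -0.22 (limma adjusted p 2.16e-06, 0.000198, 0.0384 and 0.0251). Of the list, NFE2L3, given above, was higher, and so was USP18, by 0.32 (SE 0.0473, limma adjusted p 0.000629). USP18 was at 1.28, 1.36 and 1.26 RPKM in untreated WT and 2.03, 1.82 and 1.75 RPKM in untreated KO. The 2 groups did not overlap, and at 12 h its values of 74.0 to 79.5 RPKM in WT and 78.8 to 84.1 RPKM in KO did. CD68 differed by -0.35, CTSC by 0.19 and GPX2 by -0.81 (adjusted p 0.0101, 0.0235 and 0.00256). PHLDA1-AS1, whose reads are uncertain, differed by -1.89 (SE 0.488, adjusted p 0.0349). The adjusted p without 1 library was up to 0.165 for PHLDA1-AS1 (KO replicate 2 of 0 h), 0.176 for HELZ2 (KO replicate 1), 0.0809 for UBE2L6 (WT replicate 1) and 0.0868 for CTSC (KO replicate 2). With only the libraries of the comparison in the fit, limma's adjusted p at 0 h was 0.0891 for RIGI and 0.157 for USP18. At 12 h SPRR2D (0.54, adjusted p 0.0305) and LGALS9 (0.41, 0.0142) were higher in KO, and MMP13 (-0.44, 0.0172) and CYP2J2, an epoxygenase (-0.40, 0.0384), lower. Without 1 library of 12 h their adjusted p reached 0.132 for SPRR2D and 0.139 for CYP2J2 (KO replicate 3 in each), 0.0816 for MMP13 (KO replicate 2) and 0.0714 for LGALS9 (WT replicate 1). LGALS9, MMP13 and CYP2J2 also lost their 12 h calls with a pseudocount of 0.1. Over all alternatives their limma adjusted p reached 0.226, 0.164 and 0.197.

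The interaction of genotype and time tested whether the size of the rise or of the fall differed between WT and KO. The rule asked for both in each genotype, so a gene that changed in only 1 genotype could not be a member. The counts of members called were thus limited in advance and do not show that the changes were equal. In the change from 0 to 12 h ISG15 was called, 1 of 128 members, where 0.0753% of all genes tested were. In limma, 15 members and 764 of the 13280 genes tested had an unadjusted p under 0.05. Of the 45 genes with barred prefixes that met the same thresholds, 6 (13.3%) were called, with a larger change in KO. The change of ISG15 was larger in KO by 1.01 (SE 0.167, limma adjusted p 0.0361). The values above show that the genotypes differed before interferon, with 3 of 3 KO libraries below all WT libraries at 0 h. At 12 h the difference between genotypes was -0.35 (adjusted p 0.133). The call was lost in 15 of 25 alternative fits, with an adjusted p from 0.00632 to 0.132, and leaving out KO replicate 3 of 12 h gave 0.111. In the change from 12 to 48 h limma called 0 members and 0% of all genes tested, with 16 members and 904 of all genes at an unadjusted p under 0.05. RIGI, MMP13 and TLR3, which differed between genotypes at 48 h, thus had no called difference in the fall.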

How the data were processed

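Polyadenylated RNA of 18 NIKS libraries was sequenced with the TruSeq Stranded mRNA kit, per the labels' protocols. The authors deposited 1 table of RPKM values per gene. The submitters' processing notes name cutadapt, STAR 2.6.1, RSEM 1.3.0, limma 3.50.3 and the build hg19, without roles or order. The annotation, the use of strand in counting and the treatment of mouse reads from the feeder layer are not given in the sources used here. Every sample column was matched to a label by its name.

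The values were transformed to log2(RPKM + 1), so fold changes of low genes are understated. Genes with at least 1 RPKM in at least 3 libraries were kept (13280). A limma 3.58.1 fit (R 4.3.3) with a mean for each of the 6 groups, all 18 libraries and variances with a mean trend gave p-values with Benjamini-Hochberg adjustment per comparison and a threshold of 0.05. The script was tested on simulated data. Tables and figures were made with Python 3.11.15, pandas 2.3.3, numpy 2.4.6 and matplotlib 3.10.9. Where nothing ties replicates to separate cultures beyond the label, p-values measure the spread between these samples. Same-numbered libraries of different groups deviated together with correlations of -0.097 to 0.157, and 2 of 45 pairs were over 0.1, so no pairing was used.

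The members and lists were chosen with earlier results of these data known. Genes were named from the 8 members with the largest rise, fall and 12 h level, the 8 with the highest and the 8 with the lowest level at 48 h against 0 h, up to 15 members called between genotypes, members in a fixed list, and the genes nearest the thresholds. Some of these, among them PML, SECTM1 and SULT2B1, are not described above. Other genes, among them SLC2A1, HSPA1A, BNIP3, CHORDC1 and CYB5R2, were chosen after their values were seen, as were the hypoxia, heat shock, keratin and mitochondrial lists and the hypoxia and heat shock motifs. Promoters came from RefSeq on GRCh38.p14, not the build of the files, and were matched by symbol. Alternatives were another pseudocount, other filters, median-of-ratios scaling, fewer libraries, variances without a trend, a replicate block and each library left out.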

Additional observations from a re-analysis of the deposited data

Results flagged for a closer look

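The 12 h change of ISG15 differed between genotypes by the interaction test, being larger in KO by 1.01 on the log2(RPKM + 1) scale (SE 0.167, limma adjusted p 0.0361). The means went from 15.9 to 1029 RPKM in WT and from 5.64 to 807.3 RPKM in KO. All 3 KO libraries were below all 3 WT libraries at 0 h and at 12 h, and the genotypes overlapped at 48 h. Of the 45 genes with barred prefixes that met the same thresholds, 6 (13.3%) were also called in this test.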

How the results depend on the processing

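The number of members called between KO and WT was 10 at 0 h and 9 at 48 h with only the libraries of the comparison in the fit. At 12 h it was 6 with a pseudocount of 0.1 and 6 among genes with a mean RPKM of at least 5, a filter that 92 members passed. Leaving out each library in turn gave 10 to 18 members at 0 h, 4 to 11 at 12 h and 12 to 19 at 48 h. The difference in the 12 h change was called in 0 members with only its own libraries, 0 with variances without a trend and 0 to 1 with a library left out. That from 12 to 48 h was called in 1 member with only its own libraries and in 0 to 1 with a library left out (1 without WT replicate 1 of 0 h). With the replicate block the counts were 14, 7 and 16 at 0, 12 and 48 h and 0 for both changes. The shares of all genes called in these alternative fits are not given here. The rule found 35 genes with thresholds of 2 and 0.5, and 120 to 132 with a library left out. It found 155 with 0.1 added, 159 after scaling and 129 with medians. Of 43 single results for named members, 17 kept their call in every alternative run, 26 lost it in at least 1, and 0 reversed. The cause was not tested. The number of reads is unknown, so no counting error could be given. Genes near 0 RPKM had few reads, and their ratios depend on the 1 added.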
